A study of Caenorhabditis elegans with 357 samples.

Results

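The 10 genes described here encode enzymes of glycolysis and gluconeogenesis in Caenorhabditis elegans: the glyceraldehyde-3-phosphate dehydrogenases gpd-1, gpd-2, gpd-3 and gpd-4, the aldolases aldo-1 and aldo-2, the enolase enol-1, the pyruvate kinase pyk-1, the lactate dehydrogenase ldh-1 and the phosphoenolpyruvate carboxykinase pck-1. They were chosen by name, and all 10 were found among the 19364 genes that both deposited tables list. The series holds 357 single worms in the fourth larval stage (L4), the last larval stage before the adult, each sequenced as its own polyA RNA library. Of these, 164 were of the strain labelled as a tph-1 mutant, and all others were N2, the wild-type laboratory strain. The gene tph-1 encodes the tryptophan hydroxylase that serotonin synthesis needs; the labels give the mutant strain as MT15434 tph-1(mg280) II. Both strains came from bleached eggs, were raised singly in small arenas on agar with UV-killed OP50 bacteria, were imaged for behaviour and were then cut with a needle and lysed. Each animal carries a label with its minutes in L4, 10.7 to 599 min for N2 animals and 9.59 to 596 min for tph-1 animals. Titles carry a number after the strain name, whose meaning the labels leave undefined; it groups N2 into 8 and tph-1 into 4 sets, with 1 strain in each.

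Values are RPM, a gene's reads scaled so that all listed genes of a library have the same total in every library. Animals were placed in an early window (under 200 min; 49 N2 and 47 tph-1 animals), a middle window (200 to under 400 min; 67 and 70) and a late window (400 min or later; 77 and 47). Depth ran from 587469 to 11544404 recovered reads per animal in N2 and from 437993 to 5175666 in tph-1, with medians of 2922062 and 1764816. One read thus stood for 0.0866 RPM in the deepest and 2.28 RPM in the shallowest library. In the shallowest case a member rested on 2 reads (gpd-1), and the median animal had between 36 reads (gpd-4) and 3038 reads (aldo-2) per member. From the early to the late window, median depth went through 4108493, 3084836 and 2179786 reads in N2. In tph-1 it went through 1505701, 1876449 and 1852650 reads, so depth fell along L4 in N2 only. The part of depth in the comparisons was not tested. The tph-1 transcript itself was low in both strains, with a lowest, median and highest value of 0, 2.73 and 26.9 RPM over all N2 animals and of 0, 1.81 and 19.3 RPM over all tph-1 animals, and the strain difference of -0.46 ± 0.23 on the log2 scale did not pass the test (limma over sets, adjusted p = 0.192). The tables give no value for the altered stretch of tph-1 alone, so this level is no check of the strain labels. All 8 marker lists of tissues (body-wall muscle, pharynx, intestine, germline, sperm, oocyte, hypodermis and neurons) had reads in every one of their genes.

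Glycolysis breaks glucose down to pyruvate, and gluconeogenesis rebuilds glucose from smaller carbon units with most of the same enzymes run in reverse. Aldolase, glyceraldehyde-3-phosphate dehydrogenase (GAPDH) and enolase work in both directions, pyruvate kinase works at the end of glycolysis, and phosphoenolpyruvate carboxykinase commits carbon to gluconeogenesis. Lactate dehydrogenase exchanges pyruvate and lactate. In worms, gpd-2 and gpd-3 encode the GAPDH that is abundant after hatching, and gpd-1 and gpd-4 encode the minor form known from embryos. During L4 the germline produces sperm and begins to form oocytes, and the next cuticle is made.

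The GAPDH genes gpd-2 and gpd-3 fell along L4 while gpd-1 and gpd-4 rose, in both strains. The other 6 members, aldo-1, aldo-2, enol-1, pyk-1, ldh-1 and pck-1, fell too on the RPM scale. Together the 10 members took a median of 5305 RPM in early N2 animals, 3814 RPM in the middle window and 2539 RPM in late ones. In tph-1 the medians of the sum were 4813, 3667 and 2306 RPM. Transcript length was used to order the levels. Per kilobase of exon, aldo-2 had the highest median over all N2 animals (990 RPM per kb), followed by enol-1 (502), gpd-3 (291), gpd-2 (277), aldo-1 (170), pyk-1 (89.5), ldh-1 (59.01), pck-1 (32.02), gpd-1 (14.5) and gpd-4 (13.3). The order in tph-1 was the same except that gpd-2 (326 RPM per kb) stood just above gpd-3 (322). In the early and the late window this pair had the same order in both strains, with gpd-2 above gpd-3 in early animals (553 and 533 RPM per kb in N2, 469 and 453 in tph-1) and below it in late ones (168 against 186.2, and 145 against 160.6). Other neighbours changed places by window too. In late animals gpd-1 (24.9 RPM per kb in N2 and 25.6 in tph-1) stood above pck-1 (22.2 and 23.6). In early animals gpd-4 stood above gpd-1 in both strains, and in early tph-1 animals ldh-1 (99.1) stood above pyk-1 (86.7). Most neighbours in the order over all animals were clear animal by animal: aldo-2 was above enol-1 in 96.4% of N2 animals and enol-1 above gpd-3 in 96.9%. The neighbours gpd-3 and gpd-2 were not separated beyond their spread, with gpd-3 higher in 65.8% of N2 animals, and neither were gpd-1 and gpd-4, with gpd-1 higher in 59.1%. In tph-1, gpd-2 was the higher of its pair in 40.2% of animals although its median was higher, and pyk-1 stood above ldh-1 in 60.98%, so these neighbours were not separated either.

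**Figure D1:**
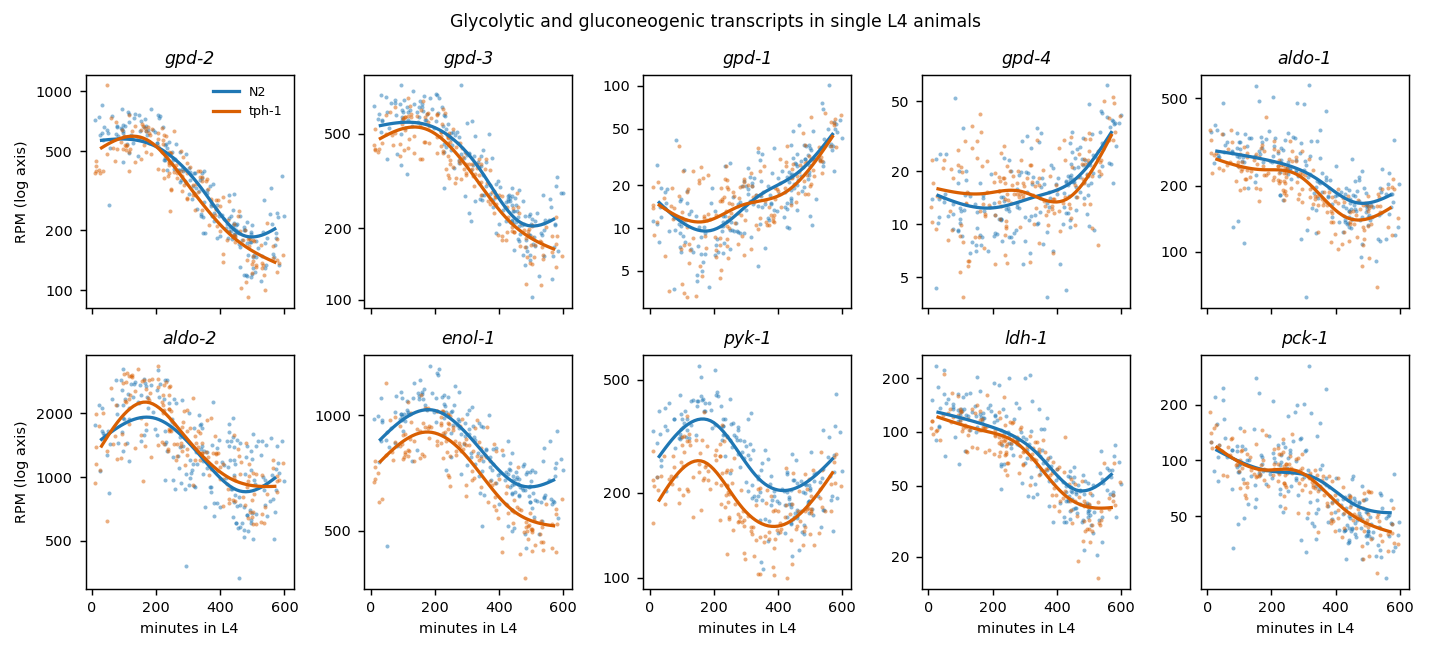
RPM of each member (log axis, 1 point per animal) against minutes in L4, with the fitted spline of each strain at the average set (lines). The curves of gpd-1 and gpd-4 end at their highest values at 570 min in both strains, and those of gpd-2 and gpd-3 are highest near 100 min and lowest from 500 min on.

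The major GAPDH genes lie next to each other on the X chromosome (WBcel235), gpd-3 (WBGene00001685) at X:3112091-3113341 and gpd-2 (WBGene00001684) at X:3113443-3114689, both on the minus strand with 101 bases between them. In N2, gpd-2 had 268 RPM in the lowest, 637 in the median and 852 in the highest early animal, and 111.1, 194 and 374 RPM in late ones. In tph-1 the early values were 388, 540.04 and 1074 RPM and the late values 92.2, 167 and 294 RPM. Early and late animals thus overlapped slightly in N2 and not at all in tph-1. The change from early to late was -1.13 ± 0.10 (SE) in N2 and -1.77 ± 0.09 in tph-1 on the log2(RPM + 1) scale, which corresponds to levels 2.19-fold and 3.40-fold lower (limma with set terms, adjusted p = 3e-20 and 6.34e-40). With set terms, the N2 change was smaller than the fall between the N2 medians. The set terms adjust levels only, and the error came from animals. For gpd-2 and the other members alike, variation of the change between sets of a strain thus did not enter these p-values. For gpd-3, the lowest, median and highest early animals of N2 had 339, 615 and 800.2 RPM and those of tph-1 390, 523 and 706 RPM. Late N2 animals had 102, 215 and 329 RPM and late tph-1 animals 115, 185.5 and 281 RPM. No late animal of either strain reached the lowest early animal of its own strain. The change of gpd-3 was -0.996 ± 0.10 in N2 and -1.42 ± 0.08 in tph-1 (adjusted p = 4.44e-17 and 2.02e-37). Without set terms it was -1.49 in N2 and -1.49 in tph-1. The fitted curve of gpd-2 peaked at 90 min in N2 and 130 min in tph-1, and that of gpd-3 at 120 and 140 min. Since gpd-2 and gpd-3 are near-identical copies, and the counting is not described in the sources used here, reads may be split between them and each is uncertain as a single gene. Their upstream neighbour mai-1, named here for its position in the same operon, is annotated at X:3114668-3116589 and shares 22 bases with gpd-2. It encodes a relative of the inhibitor of the mitochondrial ATP synthase. Its median fell from 11.8 RPM in early to 2.80 RPM in late N2 animals and from 11.8 to 2.76 RPM in tph-1, a change of -1.13 ± 0.20 and -1.56 ± 0.18 (adjusted p = 3.5e-07 and 1.36e-14).

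The minor GAPDH genes lie apart on chromosome II, gpd-1 (WBGene00001683) at II:10394129-10395349 and gpd-4 (WBGene00001686) at II:10171268-10172498, both on the plus strand. They too are near-identical copies of each other. In N2, gpd-1 had 3.71 RPM in the lowest, 10.7 in the median and 41.4 in the highest early animal, and 9.96, 27.9 and 101 RPM in late ones. In tph-1 the early values were 3.26, 11.9 and 37.5 RPM and the late values 14.1, 28.7 and 64.7 RPM. Late animals were mostly above early ones, with overlapping ranges in both strains. The rise of gpd-1 was 0.99 ± 0.19 in N2 and 1.08 ± 0.16 in tph-1 (1.98-fold and 2.11-fold; adjusted p = 2.24e-06 and 3.15e-09). The level hardly moved at first: the fitted curve was lowest at 170 min in N2 and 150 min in tph-1, and the median N2 animal went from 10.3 RPM between 200 and 300 min to 37.6 RPM after 500 min. For gpd-4, the lowest, median and highest early animals of N2 had 4.37, 12.4 and 52.01 RPM and those of tph-1 3.84, 13.2 and 42.2 RPM. Late N2 animals had 4.23, 19.4 and 61.8 RPM and late tph-1 animals 7.59, 21.9 and 52.9 RPM, so the ranges overlapped widely. The rise of gpd-4 was 0.52 ± 0.18 in N2 and 0.33 ± 0.16 in tph-1 (adjusted p = 0.0105 and 0.0425). This rise depended on single sets: in N2 it did not pass without set 5 (0.36, adjusted p = 0.14), and in tph-1 it did not pass without set 1 (0.35, 0.0764), set 3 (0.23, 0.254) or set 4 (0.24, 0.186).

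Within an animal, the share of GAPDH transcripts from gpd-1 and gpd-4 does not depend on how its library was scaled. This share had a median of 1.79% in early, 3.50% in middle and 11.5% in late N2 animals, and of 2.43%, 3.71% and 13.4% in tph-1. The highest share was 8.49% in early and 26.7% in late N2 animals, and 6.26% and 29.2% in tph-1. The log2 ratio of gpd-1 plus gpd-4 over gpd-2 plus gpd-3 rose with minutes, with Pearson's r = 0.834 and Spearman's rho = 0.854 in N2 and 0.809 and 0.792 in tph-1 (permutation test, p = 1e-05 each, the smallest that 100000 permutations can give; adjusted over the 16 values of 4 ratios, 2 strains and 2 coefficients, 1.6e-05). Without the 2 animals farthest from the median minutes, r was 0.832 and 0.801. For all 4 ratios against minutes, the permutation test took the animals of a strain as exchangeable, with no set term. Its p-values thus do not separate minutes from set. Within sets, r was positive in 7 of 8 N2 sets, from -0.230 to 0.835, and in 4 of 4 tph-1 sets, from 0.393 to 0.874.

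**Figure D2:**
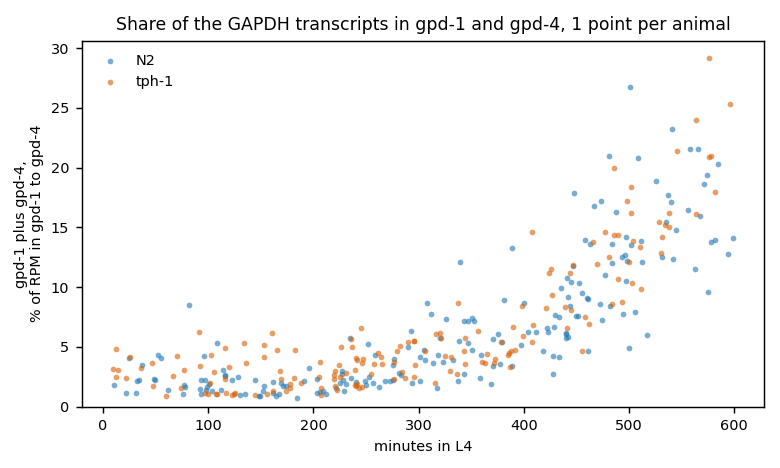
Percent of the summed RPM of gpd-1 to gpd-4 that came from gpd-1 and gpd-4, against minutes in L4, 1 point per animal. Most animals lie below 5% until about 300 min, and the late animals reach medians of 11.5% in N2 and 13.4% in tph-1.

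Aldolase splits the hexose bisphosphate of glycolysis and joins it again in gluconeogenesis. Of the aldolase genes, aldo-2 (WBGene00017166, III:5874673-5876625, minus strand, overlapping the gene F01F1.3) was the more abundant. In N2 it had 842 RPM in the lowest, 2112 in the median and 3253 in the highest early animal, and 334, 972 and 1900.1 RPM in late ones. In tph-1 the early values were 618, 2181 and 3228 RPM and the late values 602, 906 and 1580.2 RPM. Late animals lay lower, with overlap in both strains, and the changes were -0.66 ± 0.15 and -1.09 ± 0.12 (adjusted p = 4.45e-05 and 1.29e-15). Without set terms these changes were -1.07 in N2 and -1.11 in tph-1. The curve was not monotonic, since aldo-2 peaked at 170 min in both strains. For aldo-1 (WBGene00011474, III:13563346-13564937, minus strand), the lowest, median and highest early animals of N2 had 109.1, 286 and 570.1 RPM and those of tph-1 170.2, 250.1 and 411 RPM. Late N2 animals had 90.6, 160 and 324 RPM and late tph-1 animals 69.01, 153.9 and 214 RPM, again with overlap. The changes were -0.55 ± 0.13 and -0.69 ± 0.08 (adjusted p = 9.68e-05 and 1.96e-15). The ratio of aldo-1 over aldo-2 was weakly related to minutes: r with minutes was 0.130 in N2 (permutation p = 0.07) and 0.164 in tph-1 (p = 0.0358, adjusted p = 0.0409; rho = 0.212). It had the same sign in 4 of 8 N2 sets and 3 of 4 tph-1 sets, and in tph-1 it turned to -0.045 without set 3.

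Enolase makes phosphoenolpyruvate in glycolysis, and pyruvate kinase uses it. In N2, enol-1 (WBGene00011884, II:8930997-8933799, plus strand) had 457 RPM in the lowest, 1010.4 in the median and 1347 in the highest early animal, and 452, 656 and 908 RPM in late ones. In tph-1 the early values were 595, 851 and 1215 RPM and the late values 377, 521 and 813 RPM. The changes were -0.39 ± 0.07 and -0.66 ± 0.05 (adjusted p = 2.97e-07 and 4.7e-23), with a peak at 180 min in both strains. It varied least of the members around its own curve, with a residual SD of 0.19 in N2 and 0.17 in tph-1 on the log2 scale, against 0.68 and 0.70 for the median tested gene. Counting error is smaller for genes with more reads, and enol-1 had a median of 1717 reads per animal. Genes of like level were not compared. For pyk-1 (WBGene00009126, chromosome I, overlapping the gene F25H5.9), the lowest, median and highest early animals of N2 had 203, 362 and 561 RPM and those of tph-1 156, 238 and 385 RPM. Late N2 animals had 119.2, 194 and 444 RPM and late tph-1 animals 99.8, 174 and 279 RPM. The changes were the smallest of the members, -0.31 ± 0.09 and -0.30 ± 0.09 (adjusted p = 0.00212 and 0.00173). The curve of pyk-1 peaked at 170 min in N2 and 150 min in tph-1, was lowest at 420 and 390 min, and climbed again before the end of L4. Between the first and the last 100 min the change was -0.15 ± 0.11 in N2 and -0.02 ± 0.12 in tph-1, and neither passed (adjusted p = 0.277 and 0.883). Without tph-1 set 1, its late change in that strain did not pass either (-0.18, adjusted p = 0.0968).

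The lactate dehydrogenase gene ldh-1 (WBGene00002262, II:11724204-11726533, plus strand) had 65.8 RPM in the lowest, 131 in the median and 235 in the highest early N2 animal, and 20.5, 44.9 and 84.8 RPM in late ones. In tph-1 the early values were 76.8, 114.06 and 210.2 RPM and the late values 15.2, 39.3 and 93.5 RPM. Only the lowest early and the highest late animals overlapped. The changes were -0.99 ± 0.13 and -1.43 ± 0.10 (1.99-fold and 2.69-fold lower, adjusted p = 9.94e-12 and 6.66e-29). Without set terms they were -1.54 in N2 and -1.52 in tph-1. Relative to pyk-1 in the same animal, ldh-1 fell with minutes (r = -0.532 and rho = -0.563 in N2, -0.615 and -0.577 in tph-1, permutation p = 1e-05 each). The sign of r was the same in 8 of 8 N2 sets and 4 of 4 tph-1 sets.

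The gluconeogenic gene pck-1 (WBGene00021043, III:62888-66260, minus strand) had 33.7 RPM in the lowest, 100.1 in the median and 277 in the highest early N2 animal, and 23.2, 45.7 and 84.8 RPM in late ones. In tph-1 the early values were 62.4, 95.96 and 183 RPM and the late values 24.8, 48.7 and 80.3 RPM. Late animals were lower with overlap, by -0.65 ± 0.15 and -0.91 ± 0.09 (adjusted p = 0.00013 and 5.9e-17). The ratio of pck-1 over pyk-1 was negatively correlated with minutes. In N2 r was -0.243 (permutation p = 0.00067, adjusted p = 0.000893), and in tph-1 -0.492 (permutation p = 1e-05, adjusted p = 1.6e-05). This sign held in 7 of 8 N2 sets and 4 of 4 tph-1 sets. The ratio did not fall steadily, since its median was highest in the middle window. From early to late the log2 medians were -1.85, -1.67 and -2.08 in N2 and -1.31, -1.16 and -1.95 in tph-1. Both genes are at the same branch point, where phosphoenolpyruvate is either made from oxaloacetate or turned into pyruvate.

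In count, 2 of 10 members passed the test as higher and 8 of 10 as lower in late animals, in each strain. Of all 14293 tested genes, 14.7% were called higher and 43.7% lower in late N2 animals; for tph-1 these shares were 14.4% and 71.9%. With a change of at least 1 log2 unit also required, 0 members were higher and 1 (gpd-2) lower in N2, against 11.4% and 8.19% of all tested genes. The same rule left 1 higher (gpd-1) and 4 lower in tph-1, against 10.1% and 23.6%. The median tested gene was lower late as well: it changed by -0.36 in N2 and -0.68 in tph-1, and the median member by -0.60 and -0.80. When the libraries were rescaled by TMM (trimmed mean of M-values), which moved the median gene to -0.11 in N2 and -0.16 in tph-1, N2 had 2 members called higher and 3 lower, against 19.2% and 22.3% of all tested genes. For tph-1 the rescaled calls were 2 higher and 5 lower, against 25.3% and 31.2%. After rescaling, gpd-1 (1.27 and 1.65) and gpd-4 (0.81 and 0.90) were still higher, and gpd-2 (-0.82 and -1.17), gpd-3 (-0.69 and -0.82) and ldh-1 (-0.69 and -0.84) still lower in N2 and tph-1. In tph-1 aldo-2 (-0.49) and pck-1 (-0.32) passed as well. The others did not pass after rescaling, and pyk-1 in tph-1 stood at 0.30, the other sign than on the RPM scale. Along the whole stage, the spline test with a fitted range of at least 1 log2 unit between 30 and 570 min called 7 of 10 members in each strain, against 51% of all tested genes in N2 and 74.8% in tph-1. The members outside that call were aldo-1, enol-1 and pyk-1, whose adjusted p passed but whose fitted ranges were 0.79, 0.67 and 0.84 in N2 and 0.92, 0.81 and 0.77 in tph-1. After TMM rescaling this test called 4 members in N2 and 6 in tph-1, against 39.8% and 42.3% of all tested genes.

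**Figure D3:**
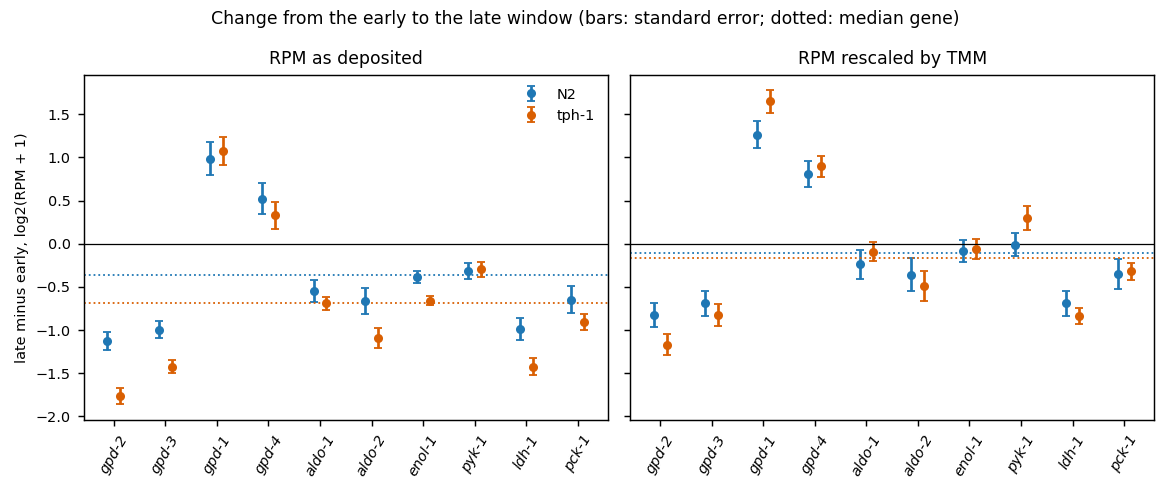
Late minus early change of each member on the log2(RPM + 1) scale, with RPM as deposited and after TMM rescaling (points: estimates; bars: standard errors; dotted lines: the median of all tested genes in each strain). The changes of gpd-1 and gpd-4 stay above 0 on both scales, those of gpd-2, gpd-3 and ldh-1 stay below it, and enol-1 moves from -0.39 and -0.66 to -0.08 and -0.06.

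The N2 comparison leans on few sets that span the stage. Of the 8 N2 sets, 4 held both early and late animals, 38 early and 6 late ones in all, and the remaining late animals were tied to early ones through the middle window. Within those 4 sets alone, chosen after seeing the data, 9 members kept their call and direction and gpd-4 did not pass (0.58, adjusted p = 0.0786). Without 10 N2 animals and 1 tph-1 animal whose germline or intestine markers summed to under 1/3 of the median of their strain and window, the calls of all 10 members were the same. Of those 10 N2 animals, 8 came from sets 3 and 4, and 5 were early and 0 late. The tph-1 sets all held early and late animals but were uneven as well. Set 1 held 10 early and 7 late animals, set 2 held 2 and 21, set 3 held 6 and 18, and set 4 held 29 and 1.

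Strain was compared at matched minutes over the sets, 4 of tph-1 against 8 of N2. By that test 0 of 10 members passed, against 0.287% of all tested genes called higher and 0.147% lower in tph-1, and 1 member had an unadjusted p under 0.05. TMM rescaling left the count at 0 of 10, against 0.371% higher and 0.049% lower. That gene was pyk-1, at -0.45 ± 0.14 (95% interval -0.74 to -0.15; limma, adjusted p = 0.0958). From the early to the late window its medians ran 362, 275 and 194 RPM for N2, and 238, 171.9 and 174 RPM for tph-1. The set intercepts of the strains overlapped, from 7.62 to 8.28 in N2 and from 7.45 to 7.80 in tph-1 on the log2(RPM + 1) scale. It passed without N2 set 7 (-0.51, adjusted p = 0.0278) or set 8 (-0.49, 0.0445), and with sets 1 to 4 of each strain only (-0.61, 0.0053). For the other members the intervals of the strain difference were -0.46 to 0.00 for enol-1, -0.45 to 0.07 for ldh-1, -0.42 to 0.07 for aldo-1, -0.39 to 0.08 for gpd-3 and -0.38 to 0.10 for gpd-2. They were -0.39 to 0.23 for pck-1, -0.22 to 0.39 for aldo-2, -0.30 to 0.29 for gpd-1 and -0.25 to 0.35 for gpd-4. Tested over animals without a term for the set, which counts animals of 1 set as independent, 6 members were called lower in tph-1 (pyk-1, enol-1, gpd-3, aldo-1, gpd-2 and ldh-1), against 43.6% of all tested genes called lower and 20% higher by that test, so these calls rest on treating animals and not sets as replicates. By edgeR on the recovered reads, also over animals without set terms, 7 members were called lower and 0 higher, against 45.7% and 16% of all tested genes. The ratio of pck-1 over pyk-1 was higher in tph-1 by 0.36 on the log2 scale (means over sets of -1.80 ± 0.25 for N2, SD, n = 8, and -1.44 ± 0.12 for tph-1, SD, n = 4; exact permutation test over all splits of the sets, two-sided p = 0.0283, adjusted over 4 ratios 0.0727). The ratio of ldh-1 over pyk-1 was higher by 0.26 (exact p = 0.0364, adjusted 0.0727), and the aldolase and GAPDH ratios differed by -0.27 and 0.18 (exact p = 0.168 and 0.311). None of the 4 ratios passed after adjustment. Since each set holds 1 strain, whatever a set stands for and the strain cannot be told apart within a set.

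**Figure D4:**
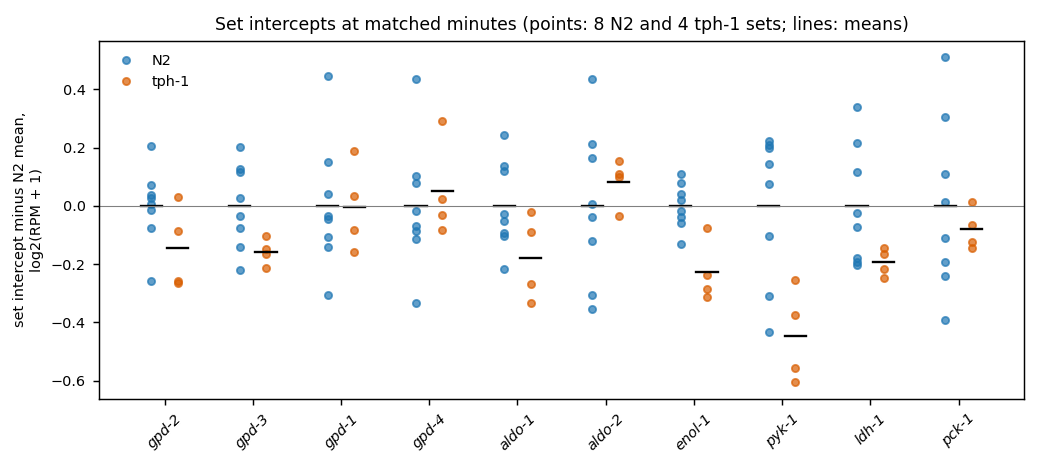
Set intercepts of each member at matched minutes, relative to the mean of the N2 sets (points: 8 N2 and 4 tph-1 sets; lines: strain means; log2(RPM + 1) scale). The tph-1 sets of pyk-1 average -0.45 while its N2 sets spread on both sides of 0, and for gpd-1 the strain means coincide.

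Whether the change along L4 differed between strains was tested as an interaction over animals with set terms. The set terms adjust levels only, and the error came from animals. Variation of the late minus early change between sets of a strain thus did not enter these p-values. Of the members, 1 of 10 was called, gpd-2, against 1.41% of tested genes called as falling more in tph-1 and 0.035% as falling less or rising more. The late minus early change of gpd-2 was lower in tph-1 than in N2 by a difference of -0.64 ± 0.14 (adjusted p = 0.00585), and that of gpd-2 and gpd-3 summed by -0.54 (adjusted p = 0.0146). The neighbours in size were gpd-3 at -0.43 ± 0.13 (adjusted p = 0.0575), ldh-1 at -0.44 ± 0.16 (0.151), aldo-2 at -0.43 ± 0.19 (0.239) and enol-1 at -0.27 ± 0.09 (0.0786). The median over all tested genes was -0.27, and after TMM rescaling, where that median was 0.00 and 0.028% of tested genes were called in each direction, gpd-2 stood at -0.35 and did not pass (adjusted p = 0.501). The difference also did not pass without N2 set 5 (-0.57, adjusted p = 0.11) or set 8 (-0.61, 0.0777), and without set terms it was 0.01 (adjusted p = 0.966).

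Animals of the same strain and age also differed from each other, and members moved together in part. After each strain's spline and set terms were removed, 19 of the 45 pairs of members were positively and 8 negatively correlated in both strains, with adjusted p under 0.05 over the 90 tests (permutation test). The share of such pairs among all tested genes was not computed. These counts therefore cannot say whether members were more often correlated than other genes. The paralogs gpd-1 and gpd-4 went together (r = 0.739 and rho = 0.738 in N2, 0.633 and 0.657 in tph-1), and so did gpd-2 and gpd-3 (0.629 and 0.656 in N2, 0.616 and 0.641 in tph-1). In these pairs reads may also be shared between near-identical copies. The aldolases did not go together: r of aldo-1 with aldo-2 was -0.161 in N2 (rho = -0.334, adjusted p of r = 0.0476) and -0.125 in tph-1 (rho = -0.150, adjusted p of r = 0.157). Instead aldo-1 went with pck-1 (0.863 in N2 and 0.579 in tph-1) and ldh-1 (0.721 and 0.425), and gpd-2 with enol-1 (0.659 and 0.701). Against the others stood gpd-1 and gpd-4, which were negatively correlated with aldo-2 (-0.256 and -0.504 for gpd-1, -0.262 and -0.528 for gpd-4). Values of 1 library share its scaling, which can raise or lower such correlations, and its part was not tested.

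In whole animals, fewer cells of a type and less RNA per cell cannot be told apart. The medians of summed tissue markers, given with no test, also differed along L4. Sperm markers went from a median of 5.95 RPM in early to 3193 RPM in late N2 animals and from 22.1 to 4665 RPM in tph-1, and oocyte markers from 58.004 to 545 RPM and from 61.1 to 465 RPM. Pharynx markers went from 2824 to 570 RPM in N2 and from 2985 to 386 RPM in tph-1, neuron markers from 239 to 110.5 RPM and from 199 to 82.7 RPM, and intestine markers from 3595 to 1692 RPM and from 2893 to 1182 RPM. Hypodermis markers had early medians of 216 RPM in N2 and 224 RPM in tph-1, and late medians of 7825 and 9708 RPM. Late animals spread widely in this sum, with lowest values of 54.6 RPM in N2 and 54.1 RPM in tph-1. Their lower quartiles were 616 and 6629 RPM, and their highest values 17194 and 18109 RPM. Whether the amount of hypodermis changed was not tested. Germline markers had early medians of 598 RPM in N2 and 487 RPM in tph-1, and late medians of 810 and 734 RPM. Body-wall muscle markers went from 11880.1 to 9095 RPM and from 13477 to 9230 RPM. Among animals of like minutes and set, given as a description with no p, aldo-1 followed the muscle markers (r = 0.79 in N2 and 0.59 in tph-1). The minor GAPDH genes followed the oocyte markers, gpd-1 at 0.40 and 0.59 and gpd-4 at 0.39 and 0.49. The gene aldo-2 followed the intestine markers at 0.32 and 0.59, and ldh-1 and pck-1 followed the neuron markers, at 0.60 and 0.50 and at 0.66 and 0.49. The part of tissue composition in the changes of the members was not tested.

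**Figure D5:**
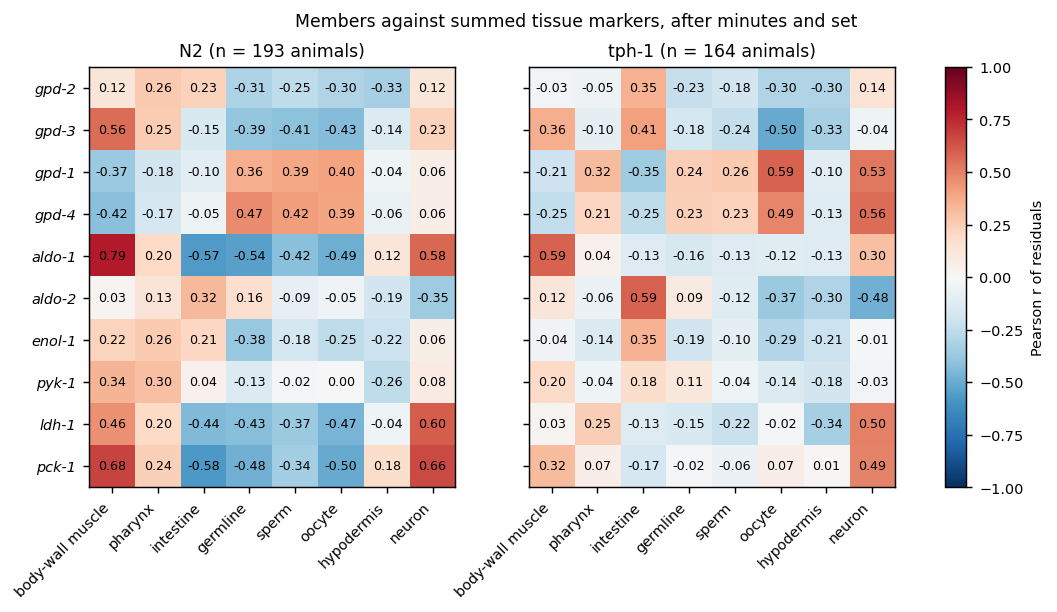
Pearson's r of each member with the summed RPM of 8 tissue marker lists over animals, after removal of each strain's spline and set (colour and number in each cell). The highest value in each strain's muscle column belongs to aldo-1 (0.79 in N2 and 0.59 in tph-1).

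The gene most alike to each member was sought among the tested genes outside the 10 members, by the smaller of the r values in both strains over all animals of each strain after removal of the spline and set, as a description. For gpd-1 it was pos-1, a maternal RNA-binding protein of the early embryo (0.76 in N2 and 0.73 in tph-1), and for gpd-4 it was gln-5, a glutamine synthetase (0.67 and 0.65). For aldo-1 it was tnt-2, a troponin T of muscle (0.83 and 0.72). For aldo-2 it was gcst-1, a protein of the glycine cleavage system (0.82 and 0.83). The gene most like gpd-2 was mdh-1, a malate dehydrogenase (0.74 and 0.72), and the one most like gpd-3 was pccb-1, a subunit of propionyl-CoA carboxylase (0.70 and 0.65). The closest gene to enol-1 was isp-1, the Rieske protein of the respiratory chain (0.67 and 0.73), and the closest to pyk-1 was ogdh-1, a subunit of oxoglutarate dehydrogenase (0.66 and 0.75). For ldh-1 it was F49E2.5 (0.70 and 0.70), and for pck-1 it was mmcm-1, methylmalonyl-CoA mutase (0.56 and 0.56).

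The remaining genes of these pathways are given beside the shares of all tested genes called above. Called lower were 43.7% in N2 and 71.9% in tph-1, and 22.3% and 31.2% after TMM rescaling. Called higher were 14.7% in N2 and 14.4% in tph-1, and 19.2% and 25.3% after TMM rescaling. Of 14 other glycolytic and gluconeogenic genes, 11 fell and 3 rose from early to late in each strain, with median changes of -0.54 in N2 and -0.66 in tph-1; after TMM rescaling 5 and 3 were called lower and 3 and 3 higher. The phosphofructokinase gene pfk-1.2 rose by 2.68 ± 0.36 in N2 and 2.10 ± 0.22 in tph-1, from medians of 0.800 and 3.35 RPM to 21.2 and 24.6 RPM. The paralog pck-3 of pck-1 rose by 2.96 ± 0.38 and 2.63 ± 0.24, from 0.758 and 2.90 RPM to 29.6 and 32.7 RPM, while pck-1 fell. Also higher was the hexokinase gene hxk-1, named after its values were seen, at 0.97 ± 0.17 and 1.08 ± 0.11. Of 7 genes for pyruvate transport into mitochondria and for the pyruvate dehydrogenase complex with its kinase, 6 fell in each strain and 0 rose. After rescaling, 3 of these 7 were called lower and 1 higher in N2, and 2 lower and 1 higher in tph-1. They include the subunits of the mitochondrial pyruvate carrier, mpc-1 (-1.34 ± 0.16 in N2 and -1.55 ± 0.14 in tph-1) and mpc-2 (-1.07 ± 0.15 and -1.50 ± 0.12). Of 19 genes of the citrate and glyoxylate cycles, 18 fell and 1 rose in each strain; the exception was icl-1, the enzyme of the glyoxylate cycle, which rose by 1.24 ± 0.26 in N2 and 1.47 ± 0.21 in tph-1. All 5 tested genes of the pentose phosphate pathway fell in both strains. Of 10 genes of trehalose and glycogen, 5 fell in N2 and 6 in tph-1 and 0 rose on the RPM scale. After rescaling, 4 of these were called lower and 2 higher in N2, and 3 lower and 3 higher in tph-1. Between strains, 1 gene of these 5 lists passed: tps-1, a trehalose-6-phosphate synthase, was higher in tph-1 by 1.02 ± 0.17 (limma over sets, adjusted p = 0.00473). Window by window its medians were 16.3, 11.01 and 9.83 RPM for N2 but 45.8, 21.3 and 16.3 RPM for tph-1, and its late minus early change was lower in tph-1 by a difference of -1.02 ± 0.28 (limma interaction, adjusted p = 0.034), where the median of all tested genes was -0.27. After TMM rescaling the strain difference of tps-1 still passed (1.16 ± 0.14, adjusted p = 0.00069) and its interaction did not (-0.72 ± 0.21, adjusted p = 0.128). The rescaled counts of genes called lower were 5 and 3 of the citrate and glyoxylate list and 2 and 2 of the pentose phosphate list.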

How the data were processed

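Single L4 animals of 2 strains were sequenced by SMART-seq2 (series design text) with Nextera tagmentation, per the labels' protocols. The submitters' processing notes name STAR 2.7.9a; build, annotation, counting tool and strand setting were not given in the sources used here. The deposited values are RPM per gene, 1 table per strain, scaled by the authors to the reads in all listed genes. The unit was taken from the table names and tested on the values: whole reads were recovered in 100% of the values of every library, within 0.1 reads. Minutes in the tables matched the labels in 357 of 357 libraries, and 0 pairs of libraries held identical values. Coordinates and exon lengths are from the Ensembl annotation of WBcel235.

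A filter of 5 RPM or more in 10% or more of all animals kept 14293 of 19364 genes for testing, with all 10 members among them. Fits used limma 3.58.1 (trend, R 4.3.3) on log2(RPM + 1), a scale that understates changes of low genes, with Benjamini-Hochberg adjustment over all tested genes and a threshold of 0.05. Time was fitted as a natural spline with 4 degrees of freedom and as early, middle and late windows, both with set terms and with the error from animals. Strain was fitted in 2 stages, a shared spline with set intercepts and then limma on 12 intercepts. Errors beside changes are standard errors. Correlations used 100000 permutations, two-sided (Python 3.11.15). Animals are separate samples by the labels, but those of a set may share a batch or day that no label describes. Depth gives counting error only, since reads carry no molecular identifiers.

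The members and lists were chosen with earlier results of these data known. Named are the 10 members, genes of the 5 pathway lists with a called change of at least 1 in both strains or a call between strains, and the gene most alike to each member; mai-1, hxk-1 and the mutated gene were added. Alternatives were a pseudocount of 5, a filter at a mean of 10 RPM or none, TMM rescaling, no set term, a spline with 3 degrees of freedom, other call rules and windows, camera as a covariate, sets left out, sets 1 to 4 with the set number as a block, and edgeR 4.0.16 (quasi-likelihood) on recovered reads as counts, which called 7590 genes for late minus early in N2, 12580 in tph-1, 8820 between strains and 719 for the interaction; 2 more were chosen after seeing the data. The scripts were tested on simulated data.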

Additional observations from a re-analysis of the deposited data

Results flagged for a closer look

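In the fit with set terms, the fall of gpd-2 from early to late L4 was called as larger in tph-1 than in N2. Late minus early was -1.13 ± 0.10 in N2 and -1.77 ± 0.09 in tph-1. The difference was -0.64 ± 0.14 on the log2(RPM + 1) scale (limma interaction over animals with set terms, adjusted p = 0.00585). It did not pass without set terms, nor without N2 set 5 or set 8. Median gpd-2 went from 637 to 194 RPM in N2 and from 540.04 to 167 RPM in tph-1. These medians carry no set terms and fell to a like extent in both strains. In the fit with set terms, the median difference over all tested genes was also negative, at -0.27. After TMM rescaling, another way to scale the libraries, the gpd-2 difference was -0.35 and did not pass (limma interaction, adjusted p = 0.501). The part of library scaling in the difference was not tested. Among the 20 groups of 4 or 8 set intercepts, 10 members in each strain, 0 held a set that stood apart by Dixon's criterion.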

How the results depend on the processing

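Directions of the late minus early changes held for all 10 members in both strains under the alternatives run, except pyk-1 in tph-1, which turned to 0.30 after TMM rescaling. Counts of members moved as follows. With TMM rescaling, 3 were lower in N2 and 5 in tph-1, and the N2 time course called 4. With a change of at least 1 required, N2 had 0 higher and 1 lower, tph-1 had 1 higher and 4 lower. With N2 sets holding both early and late animals, 1 was higher. Leaving out 1 set at a time gave 1 to 2 higher in N2 and 1 to 2 in tph-1 (N2 set 5 and tph-1 sets 1, 3 and 4 took gpd-4 out). Between strains, the count of lower members was 6 over animals without set terms, 7 with edgeR over animals, 0 to 1 with a set left out, and 1 in sets 1 to 4. Sets that share a number did not deviate together (r across genes 0.166, -0.0433, 0.00818 and 0.0419 for numbers 1 to 4, and only number 1 correlated best with its own number), so the number was not taken as a pairing. With the set number as a replicate block, the blocked fit called 1 member, pyk-1 (-0.61, adjusted p = 0.00994), as did the fit of the same sets without the block (adjusted p = 0.0053), and moved gpd-1 to 0.0044. For the interaction, the count of lower members was 2 with a pseudocount of 5, with the filter at 10 RPM and without animals of low tissue markers, 3 with edgeR, 0 with TMM, without set terms and for first against last 100 min, and 0 to 3 with a set left out (0 without N2 set 5 or 8, 3 without N2 set 4, 2 without N2 set 1 or tph-1 set 4); without set terms pyk-1 was called higher, at 0.39.

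Other signs of single genes that turned belonged to values that did not pass, except gpd-2 in the interaction. Between strains, gpd-1 stood at 0.12 (TMM), 0.030 (over animals), 0.0044 (sets 1 to 4), 0.052 (camera) and 0.019 (edgeR), from -0.063 to 0.059 with a set left out, gpd-4 ran from -0.024 to 0.11 with a set left out, and pck-1 stood at 0.057 (TMM). In the interaction, without set terms gpd-1 was -0.00802, gpd-2 0.0072, gpd-3 0.0014, aldo-1 0.00865, ldh-1 0.023 and pck-1 0.044. With TMM gpd-4 was 0.092, aldo-1 0.15, enol-1 0.022 and pck-1 0.026. Also, gpd-1 was -0.23 for first against last 100 min and -0.075 with edgeR, and pyk-1 -0.043 without animals of low tissue markers. With a set left out, gpd-1 ran from -0.015 to 0.25, aldo-1 from -0.20 to 0.0084 and pyk-1 from -0.065 to 0.13.

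The ratio of aldo-1 over aldo-2 against minutes ran from 0.046 to 0.20 in N2 and from -0.045 to 0.36 in tph-1 with a set left out. The strain differences of pck-1 and ldh-1 over pyk-1 ran from 0.30 to 0.41 and from 0.19 to 0.31. The causes of these moves were not tested. Counting error is largest for gpd-1 and gpd-4, with medians of 40 and 36 reads per animal.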
